A study of Ovis aries with 12 samples.

Results

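The cytosolic heat shock proteins described here are 10 genes of the sheep corpus luteum, measured by 21 of the 24016 probe sets tested and making up 10 of the 9155 genes with a symbol. The small heat shock proteins CRYAB, HSPB1, HSPB6 and HSPB8 are set beside the HSP70 chaperones HSPA1A and HSPA8, HSP90AA1, HSPH1, and the cochaperones DNAJB1 and BAG3. CRYAB was singled out by its difference between day 14 and day 12 in non-pregnant ewes, and the other 9 were taken because they belong to the same chaperone system. Every probe set annotated with only that gene's symbol was included, with no filter on level, so all 10 genes were measured. They answer whether CRYAB stood alone among the cytosolic chaperones.

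The corpus luteum forms from the ovulated follicle and secretes progesterone, and it regresses at the end of a cycle without a conceptus. Each of 12 ewes gave 1 gland, which was snap frozen, and its total RNA was hybridised to a bovine Affymetrix array. There were 4 groups of 3 ewes. They were day 14 pregnant, day 14 non-pregnant, day 12 pregnant and day 12 non-pregnant. Pregnant ewes had been bred to a fertile ram, while the others were not bred and their heat was followed with a vasectomized ram. No treatment, strain or age was named for any group.

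Heat shock proteins bind unfolded polypeptides. Small heat shock proteins hold them in a soluble state without using ATP, HSP70 refolds them in cycles driven by ATP and set by HSP40 proteins and nucleotide exchange factors, and HSP90 finishes the folding of client proteins such as kinases and steroid receptors. In the classical heat shock response the transcription factor HSF1 induces many of these genes together. CRYAB is also abundant without stress in lens and muscle, where it protects intermediate filaments.

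Values are log2 expression levels made by RMA, and ± marks the standard error of a log2 difference from limma unless SD is named. Each gene is represented by its brightest probe set, and its others are given beside it. Sheep RNA met bovine probes, so levels of different probe sets cannot be compared, and only differences of the same probe set between groups are read. Array medians lay between 5.16 and 5.24. On the leading principal component (29.6% of the variance) the 3 day 14 non-pregnant arrays lay at 18.1, 33.7 and 40.4, against -13.0 to -7.00 for the other 9. The description labels speak of a gene array in 4 cases (batch A) and of a genome array in the other 8 (batch B). All 12 titles name day 12 pregnant, against the source label of 9 arrays, and the source label was followed.

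CRYAB, the alpha B crystallin, was high in 1 group. Its level was 6.03, 5.91 and 5.56 in day 14 pregnant ewes and 7.82, 8.08 and 7.77 in day 14 non-pregnant ewes. On day 12 it was 5.37, 5.79 and 5.63 in pregnant ewes and 5.83, 5.76 and 5.66 in non-pregnant ewes. The day 14 non-pregnant ewes thus lay between 7.77 and 8.08 and the other 9 ewes between 5.37 and 6.03, with no overlap. The group means were 5.83 ± 0.247, 7.89 ± 0.165, 5.60 ± 0.210 and 5.75 ± 0.0851 in the same order (SD, n = 3). In bulk tissue, fewer cells of a type and less RNA per cell cannot be told apart.

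Between day 14 and day 12 in non-pregnant ewes the CRYAB difference was 2.20 ± 0.17 (95% interval 1.83 to 2.56), or 4.58-fold, the sixth in size among the 9155 genes. That is the difference by which it was chosen, so no test is given. Against day 14 non-pregnant ewes, pregnant ewes of that day were at -2.08 ± 0.15 (95% interval -2.41 to -1.75), a level 4.24-fold lower, which is a description too because the same 3 non-pregnant arrays enter. The batch A arrays alone gave -2.36 and the batch B arrays alone -1.85. In batch A this sets 1 pregnant ewe against 2 others, and in batch B it sets 2 pregnant ewes against 1 other. The same holds for every batch value of pregnancy on day 14 given below, so each has a side without replication. In pregnancy, day 14 against day 12 uses none of the arrays that chose the gene, and there CRYAB was at 0.24 ± 0.14 and did not pass (95% interval -0.08 to 0.55, adjusted p = 0.992, limma).

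**Figure D1:**
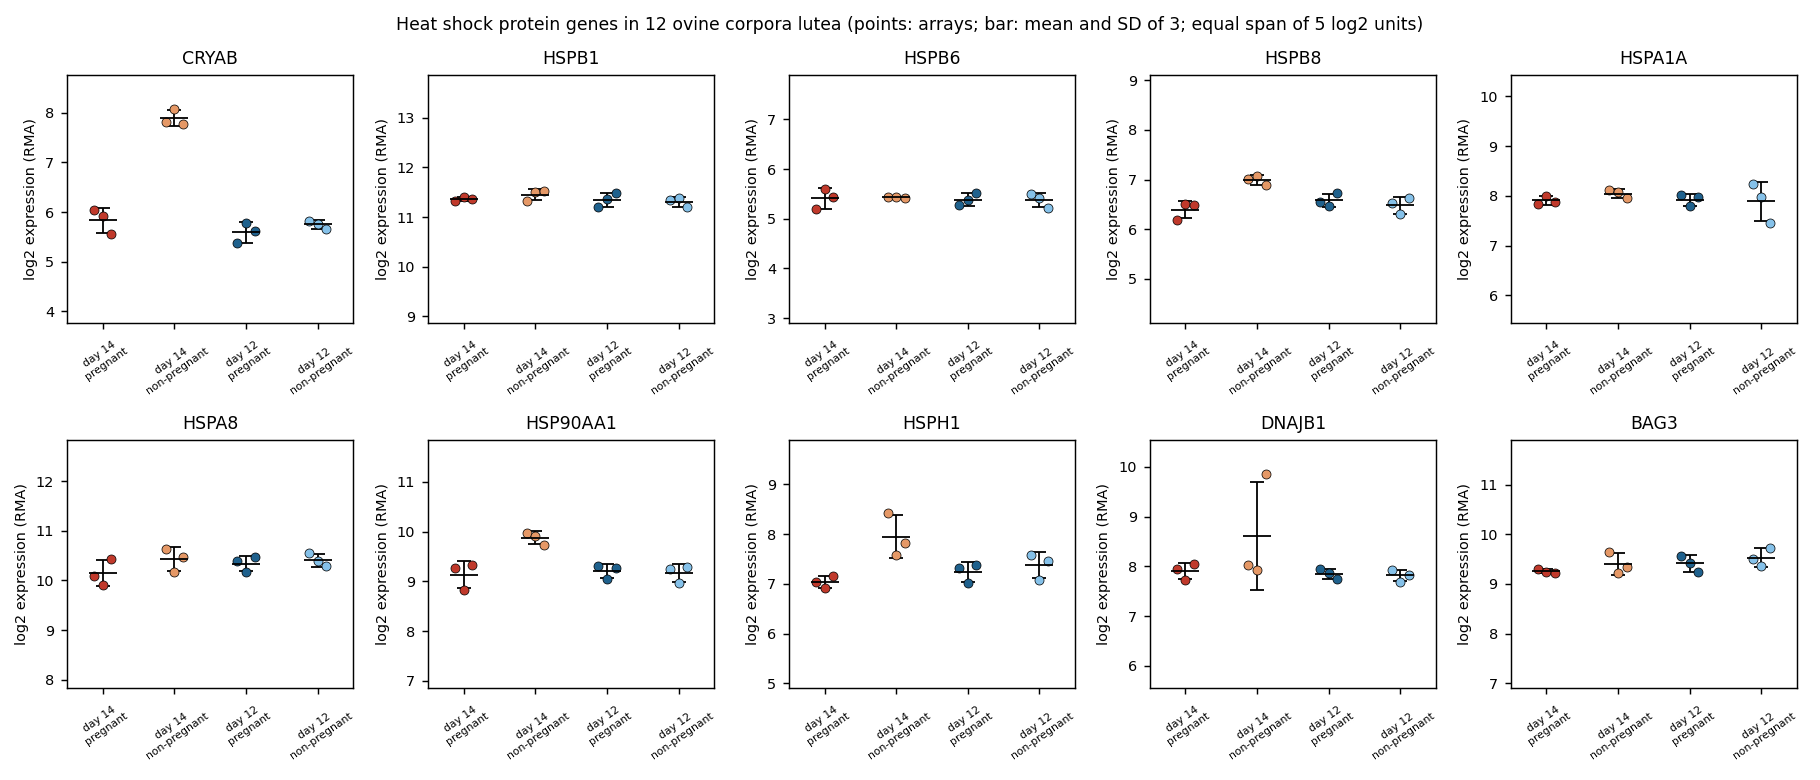
Log2 level of the brightest probe set of each of the 10 heat shock genes in the 12 ewes. Points are ewes, bars give the mean and SD of 3, and groups run from day 14 pregnant on the left to day 12 non-pregnant on the right. The 3 day 14 non-pregnant ewes are clear of all others for CRYAB, while for HSPB1, HSPB6 and BAG3 they overlap the day 14 pregnant and the day 12 non-pregnant ewes.

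The other small heat shock proteins did not share the size of this difference. HSPB8, which works with BAG3 to direct misfolded proteins to autophagy, was at 6.19, 6.50 and 6.48 in day 14 pregnant ewes and 7.01, 7.08 and 6.89 in day 14 non-pregnant ewes. The day 12 levels were 6.54, 6.47 and 6.73 in pregnant ewes and 6.53, 6.30 and 6.63 in non-pregnant ewes. The day 14 non-pregnant ewes again lay above the other 9, without overlap but by a smaller margin. Pregnant minus non-pregnant ewes on day 14 gave -0.56 ± 0.12 (95% interval -0.83 to -0.29), with -0.50 in batch A and -0.66 in batch B. It missed the threshold (adjusted p = 0.0502, limma) and passed in 6 of 10 other alternatives, but in only 1 of the 12 fits that leave out an array. Without pregnancy, day 14 minus day 12 was 0.43 ± 0.14 for HSPB8.

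HSPB1, a widely expressed small heat shock protein that also binds actin, was at 11.33, 11.41 and 11.36 in day 14 pregnant ewes and 11.32, 11.51 and 11.52 in day 14 non-pregnant ewes. It was at 11.20, 11.37 and 11.48 in day 12 pregnant ewes and 11.34, 11.39 and 11.20 in day 12 non-pregnant ewes. All 4 groups overlapped. The day 14 pregnancy difference was -0.04 ± 0.10, and its 95% interval of -0.26 to 0.17 holds no change near the size seen for CRYAB (adjusted p = 0.878, limma). The dimmer HSPB1 probe set was at 0.07 ± 0.16 there.

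HSPB6, known for its role in relaxing smooth muscle, was at 5.19, 5.60 and 5.43 in day 14 pregnant ewes and 5.44, 5.44 and 5.42 in day 14 non-pregnant ewes. The day 12 levels were 5.27, 5.37 and 5.52 in pregnant ewes and 5.50, 5.42 and 5.22 in non-pregnant ewes. The groups overlapped throughout. Its day 14 pregnancy difference had a 95% interval of -0.27 to 0.27 (adjusted p = 0.999, limma).

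HSPB2, a muscle small heat shock protein, lies next to CRYAB in the sheep genome, with 0 annotated genes between them in ARS-UI_Ramb_v3.0. It was at 5.78, 5.81 and 5.65 in day 14 pregnant ewes and 5.45, 5.10 and 5.55 in day 14 non-pregnant ewes. The groups did not overlap, and the side was the opposite of that of CRYAB (0.35 ± 0.15, adjusted p = 0.309, limma). For day 14 minus day 12 without pregnancy HSPB2 was at -0.21 ± 0.17.

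Of the larger chaperones, HSP90AA1, the stress-inducible cytosolic HSP90, was lower in day 14 pregnant than in day 14 non-pregnant ewes. It was at 9.26, 8.82 and 9.32 in day 14 pregnant ewes and 9.98, 9.92 and 9.74 in day 14 non-pregnant ewes. Day 12 levels were 9.30, 9.05 and 9.27 in pregnant ewes and 9.25, 8.96 and 9.29 in non-pregnant ewes. The day 14 non-pregnant ewes were above all others. The pregnancy difference on day 14 was -0.72 ± 0.15 (95% interval -1.05 to -0.39), a level 1.65-fold lower (adjusted p = 0.0427, limma), lower in 3 of 3 pregnant ewes than in any non-pregnant ewe. Batch A gave -0.51 and batch B -0.94.

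This call was close to the threshold. It remained in only 2 of the 12 fits that leave out an array, those without day 14 non-pregnant replicate 3 or day 12 non-pregnant replicate 2, and the adjusted p over the 12 lay between 0.0433 and 0.174. It was kept in 6 of the 10 other alternatives. The dimmer HSP90AA1 probe set was at -0.30 ± 0.10 (adjusted p = 0.178), also without overlap. For day 14 minus day 12 without pregnancy the probe sets were at 0.66 ± 0.17 and 0.29 ± 0.11. HSP90AB1, the constitutive HSP90, was at -0.02 ± 0.10 between pregnant and non-pregnant ewes on day 14 (adjusted p = 0.949).

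HSPH1, the HSP110 chaperone that reloads HSP70 with ATP, was at 7.04, 6.91 and 7.15 in day 14 pregnant ewes and 8.44, 7.59 and 7.83 in day 14 non-pregnant ewes. On day 12 it was at 7.32, 7.01 and 7.38 in pregnant ewes and 7.58, 7.08 and 7.46 in non-pregnant ewes. Non-pregnant replicate 1 of day 14 was the highest of all 12 glands, and its group lay above the day 14 pregnant ewes without overlap. On day 14 pregnant ewes were at -0.95 ± 0.21 relative to non-pregnant ewes (95% interval -1.41 to -0.50), which missed the threshold (adjusted p = 0.0502, limma). Batch A gave -0.56 and batch B, which holds that replicate, -1.46, and the difference was -0.55 without it. HSPH1 passed in 7 of 10 other alternatives and in 1 of 12 fits without an array.

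Its 3 dimmer probe sets, all near the lower end of the array's range, were at -0.46, -0.27 and -0.06 on day 14. Between day 14 and day 12 in non-pregnant ewes the brightest was at 0.65 ± 0.23, and at 0.14 without day 14 non-pregnant replicate 1.

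**Figure D2:**
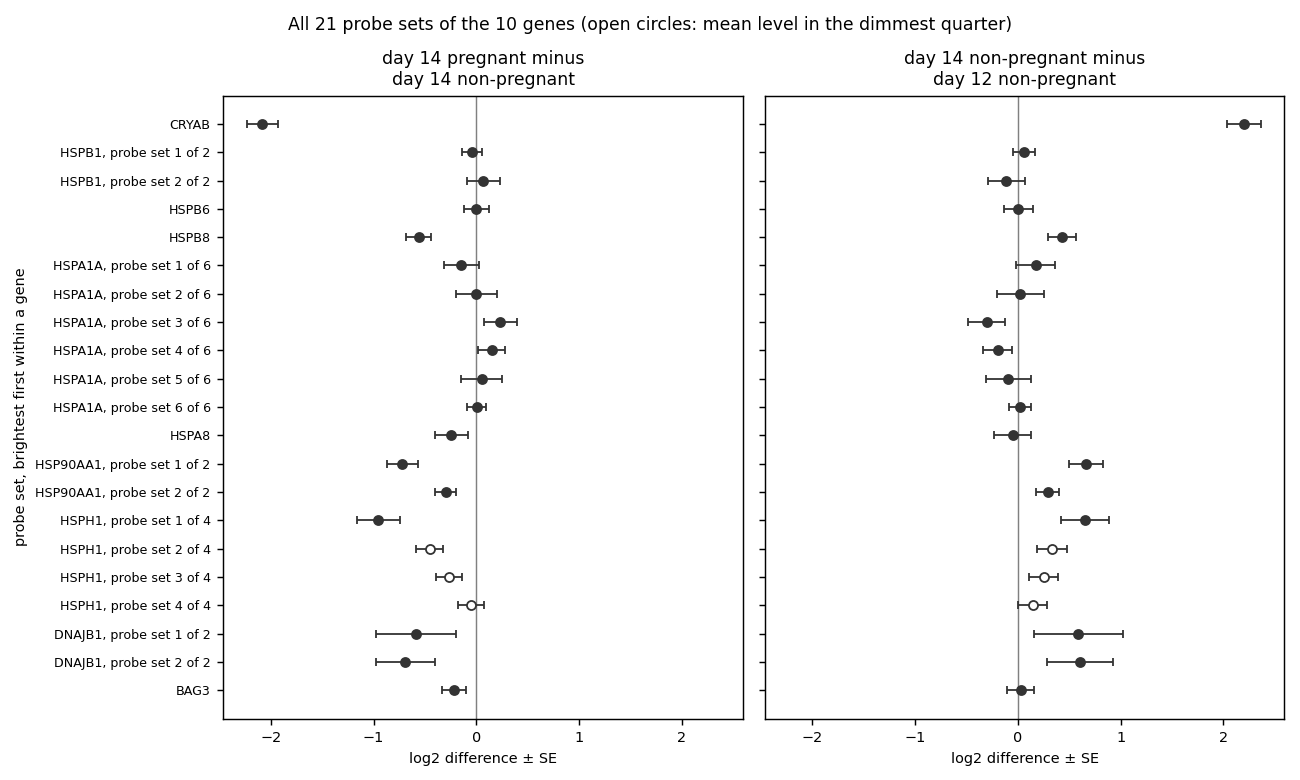
Log2 difference ± standard error (limma) of all 21 probe sets of the 10 genes, for day 14 pregnant minus day 14 non-pregnant and for day 14 minus day 12 without pregnancy. Probe sets of a gene run from the brightest down, and open circles lie under the 25th percentile of mean level. CRYAB lies at -2.08 and 2.20, and the probe sets of HSPH1 and HSP90AA1 differ in size.

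DNAJB1, the inducible HSP40 that delivers clients to HSP70, was decided by 1 ewe in its brightest probe set. Its level was 7.96, 7.73 and 8.05 in day 14 pregnant ewes and 8.03, 7.93 and 9.86 in day 14 non-pregnant ewes. On day 12 it was 7.94, 7.86 and 7.74 in pregnant ewes and 7.93, 7.69 and 7.83 in non-pregnant ewes. On this probe set only day 14 non-pregnant replicate 3 was high. The second probe set was at 9.35 in that gland, against 8.39 and 7.94 in the other 2. There replicate 1, at 8.39, also lay above the ewes of the other groups, of which the highest was at 8.08. In batch B, which does not hold replicate 3, the second probe set gave -0.73 for pregnancy on day 14. The pregnancy difference on day 14 was -0.59 ± 0.39 (adjusted p = 0.508) and -0.69 ± 0.29 (adjusted p = 0.274) for the probe sets, and neither passed. Without replicate 3 the first was at -0.067. Against day 12 the difference of the first in non-pregnant ewes was 0.59 ± 0.43, and 0.17 without replicate 3.

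By brightest probe set, the highest of the day 14 non-pregnant glands was not the same for all members. It was replicate 1 for HSP90AA1, HSPH1, HSPA8, HSPA1A, BAG3 and HSPB6, and this is the only batch B array of that group. Replicate 2 was highest for CRYAB and HSPB8, and replicate 3 for DNAJB1 and HSPB1. The gap to the next gland was small for some members, as for HSPB8 (7.08 against 7.01).

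HSPA8, the constitutive HSP70, was at 10.08, 9.92 and 10.44 in day 14 pregnant ewes and 10.63, 10.17 and 10.48 in day 14 non-pregnant ewes. Day 12 ewes had 10.38, 10.16 and 10.47 in pregnant ewes and 10.55, 10.39 and 10.28 in non-pregnant ewes. The groups overlapped. Day 14 pregnant minus non-pregnant was -0.24 ± 0.16 (95% interval -0.60 to 0.11, adjusted p = 0.51, limma), but 0.12 in batch A and -0.63 in batch B. In non-pregnant ewes day 14 was at -0.05 ± 0.18 against day 12.

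HSPA1A, the main stress-inducible HSP70, is covered by 6 probe sets that the annotation files under a pair of gene identifiers. The cattle and sheep genomes hold near-identical copies of this gene, so which copy a probe set reads is uncertain. The brightest was at 7.84, 8.01 and 7.88 in day 14 pregnant ewes and 8.11, 8.07 and 7.95 in day 14 non-pregnant ewes. Day 12 ewes had 8.01, 7.79 and 7.97 in pregnant ewes and 8.23, 7.97 and 7.46 in non-pregnant ewes. The groups overlapped, and the widest spread was among the day 12 non-pregnant ewes. The pregnancy difference on day 14 was -0.15 ± 0.17 (95% interval -0.52 to 0.23, adjusted p = 0.739, limma), and the other 5 probe sets were between 0.00 and 0.23. Against day 12, the day 14 non-pregnant ewes were at 0.17 ± 0.19 for the brightest and between -0.30 and 0.02 for the others.

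BAG3, a nucleotide exchange factor of HSP70 and partner of HSPB8, was at 9.31, 9.24 and 9.22 in day 14 pregnant ewes and 9.65, 9.22 and 9.33 in day 14 non-pregnant ewes. It was at 9.57, 9.43 and 9.24 in day 12 pregnant ewes and 9.50, 9.35 and 9.73 in day 12 non-pregnant ewes. The day 14 groups overlapped. Day 14 pregnant minus non-pregnant was -0.22 ± 0.12 (95% interval -0.48 to 0.04, adjusted p = 0.401, limma). Day 14 against day 12 gave 0.03 ± 0.13 in non-pregnant ewes.

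Over the 10 genes, 2 were lower in day 14 pregnant than in day 14 non-pregnant ewes, CRYAB and HSP90AA1, and 8 did not pass. The arrays by which CRYAB was chosen enter its call. In limma over all probe sets 1.45% passed in either direction and 0.912% were lower. Of the 9155 genes by brightest probe set, 178 (1.94%) passed, 110 of them lower. By brightest probe set all 10 differences were below 0, as were 44.4% of the 9155 genes, though HSPB6 was at -0.0007. The members' median was -0.40 against 0.03 for all genes. The dimmer probe sets of HSP90AA1, HSPH1 and DNAJB1 were below 0 too. Those of HSPB1 and HSPA1A were between 0.00 and 0.23. The groups did not overlap for CRYAB, HSPB8, HSP90AA1 and HSPH1, as for 7.15% of probe sets with pregnant ewes lower. That share was not counted by gene. The day 14 non-pregnant arrays of this comparison are also those of the comparison that follows.

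Between day 14 and day 12 in non-pregnant ewes 1 of the 10, CRYAB, passed. The background was 0.391% of probe sets in either direction and 0.291% higher. By brightest probe set it was 46 of the 9155 genes (0.502%), 39 of them higher. The rule used this contrast for CRYAB, and nothing is read from the count. The differences ran from -0.05 for HSPA8 to 2.20 for CRYAB, with a median of 0.30 against -0.02 for all genes. After CRYAB came HSP90AA1 at 0.66, HSPH1 at 0.65, DNAJB1 at 0.59 and HSPB8 at 0.43, while HSPA1A, HSPB1, BAG3, HSPB6 and HSPA8 lay between -0.05 and 0.17. CRYAB, HSPB8, HSP90AA1 and HSPH1 had day 14 ewes all above the day 12 ewes, as 7.67% of probe sets did, again not counted by gene. Batch A held no day 12 non-pregnant ewe, so only batch B, with 1 day 14 and 3 day 12 arrays, gives values of its own. There CRYAB was at 2.07, HSPH1 at 1.06, HSP90AA1 at 0.81, HSPB8 at 0.53, DNAJB1 at 0.21 and HSPA8 at 0.23. The size was thus over 1.5 times that of the full fit for HSPH1, smaller for DNAJB1, and on the other side of 0 for HSPA8.

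**Figure D3:**
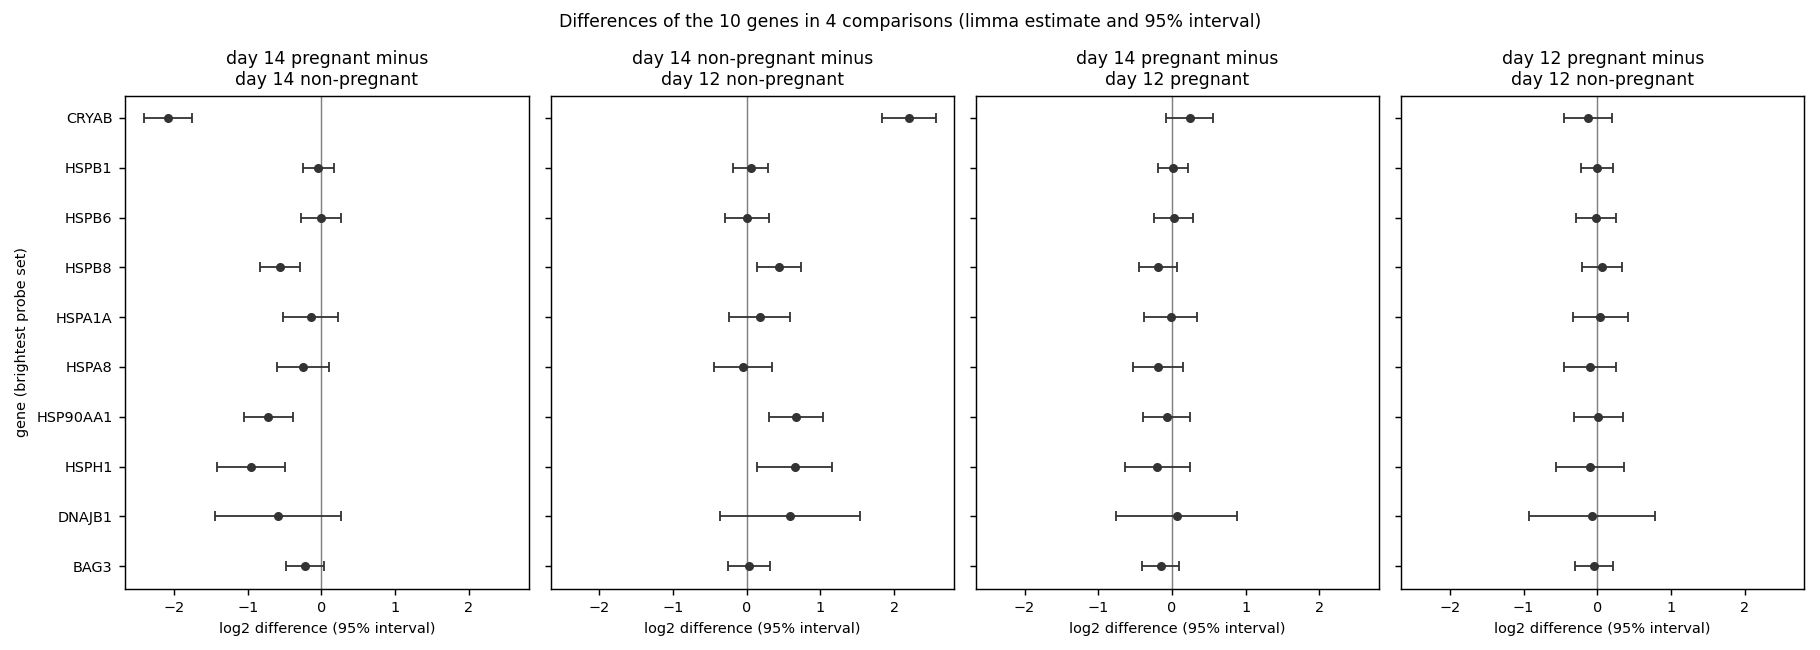
Log2 differences with 95% intervals from limma for the brightest probe set of the 10 genes in 4 comparisons between groups. CRYAB lies near -2.08 and 2.20 in the comparisons that hold day 14 non-pregnant ewes, and all 10 genes lie within -0.20 to 0.24 in the other comparisons.

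In the other comparisons none of the 10 passed. Between day 14 and day 12 in pregnancy 0 passed in limma and 0 had an unadjusted p under 0.05, with 0% of probe sets passing at all and 418 of the 9155 genes at an unadjusted p under 0.05. The members' differences lay between -0.20 for HSPH1 and 0.24 for CRYAB. All 10 genes had overlapping groups, where 9.9% of probe sets did not overlap. Between pregnant and non-pregnant ewes on day 12, 0 of 10 passed in limma, 0 had an unadjusted p under 0.05 and 0% of probe sets passed. Over all genes 793 of the 9155 (8.66%) had an unadjusted p under 0.05 in that comparison. These differences lay between -0.12 for CRYAB and 0.06 for HSPB8, with overlapping groups for all 10 and 16.4% of probe sets not overlapping. For CRYAB this is a description, since the day 12 non-pregnant arrays took part in choosing it.

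The pregnancy difference on day 14 was then compared with that on day 12. It was larger on day 14 for CRYAB, at -1.96 ± 0.22 (95% interval -2.44 to -1.47), which is a description since it holds the arrays by which the gene was chosen. For the others the change in the pregnancy difference was -0.62 ± 0.18 for HSPB8 (adjusted p = 0.311), -0.74 ± 0.22 for HSP90AA1 (adjusted p = 0.333) and -0.86 ± 0.31 for HSPH1 (adjusted p = 0.401), and none passed in limma. CRYAB was the 1 of 10 past the threshold, beside 0.0874% of probe sets and 0.109% of the 9155 genes. Nothing is read from this count because its arrays chose the gene. It was 0 of 10 without day 14 pregnant replicate 3, day 12 pregnant replicate 2 or day 12 non-pregnant replicate 3.

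Further genes of the chaperone system were read from 9 lists. Of 75 listed genes 58 were measured, and 0 passed in any of the 5 comparisons in limma, while 16 and 9 had an unadjusted p under 0.05 for pregnancy on day 14 and for day 14 against day 12 without pregnancy. Over all 9155 genes those shares were 18.2% and 13.3%, against which 16 and 9 of 58 are to be read. The median of the 58 was -0.06 for pregnancy on day 14 and 0.07 for day 14 against day 12 without pregnancy. HSF1, the factor that switches on the heat shock response, was at 0.02 ± 0.11 (adjusted p = 0.961), and HSF2, its relative, at 0.02 ± 0.12 (adjusted p = 0.953), for pregnancy on day 14. STUB1, the ubiquitin ligase that marks clients of HSP70 for destruction, was at -0.09 ± 0.19 (adjusted p = 0.865).

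The HSP40 list had its measured genes on 1 side of 0 in each of these comparisons. All 7 measured genes were below 0 for pregnancy on day 14 (median -0.37) and above 0 for day 14 against day 12 without pregnancy (median 0.37). The 6 measured subunits of the chaperonin CCT, which folds actin and tubulin, also lay below 0 (median -0.20) and above 0 (median 0.08) in the same comparisons. The 3 other small heat shock proteins measured, HSPB2, HSPB3 and CRYAA, lay the other way, with medians of 0.24 and -0.17. Of all 9155 genes, 44.4% were below 0 for pregnancy on day 14 and 46.5% above 0 for day 14 against day 12 without pregnancy. These comparisons share the day 14 non-pregnant arrays with opposite sign, so the opposite sides are not independent. DNAJA1, a partner of cytosolic HSP70, was at 9.07, 9.02 and 8.98 in day 14 pregnant ewes and 10.01, 8.91 and 9.71 in day 14 non-pregnant ewes. Its pregnancy difference was -0.61 ± 0.20 (adjusted p = 0.161), and replicate 2 of the non-pregnant ewes lay below the pregnant ones.

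DNAJA4, another HSP40, was at 6.33, 6.18 and 6.31 in day 14 pregnant ewes and 7.04, 6.42 and 7.12 in day 14 non-pregnant ewes (-0.60 ± 0.18, adjusted p = 0.129). BAG5, a nucleotide exchange factor family member, was at 4.54, 4.49 and 4.40 in day 14 pregnant ewes and 5.21, 4.60 and 5.19 in day 14 non-pregnant ewes (-0.63 ± 0.15, adjusted p = 0.0738). In both, the non-pregnant replicate 2 was the lowest of its group. Without that replicate 4 of the 58 passed for pregnancy on day 14, DNAJA1 (-0.86), DNAJA4 (-0.80), DNAJB5 (-0.68) and BAG5 (-0.76). DNAJA1, DNAJA4 and DNAJB5 then also passed for day 14 against day 12 without pregnancy. Without non-pregnant replicate 1, HSPA12B, a distant HSP70 relative, passed with the opposite sign (0.63).

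**Figure D4:**
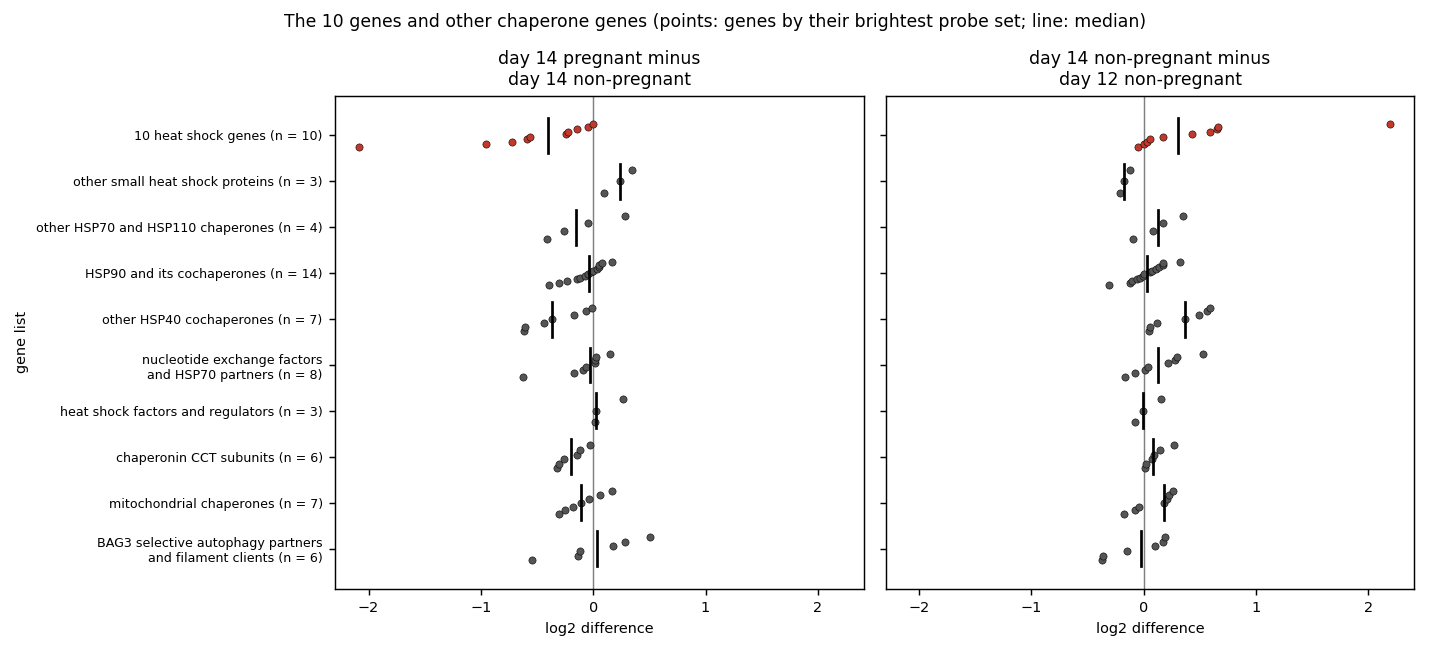
Log2 differences of the measured genes of 9 chaperone lists and of the 10 members, for day 14 pregnant minus day 14 non-pregnant and for day 14 minus day 12 without pregnancy. Each point is 1 gene by its brightest probe set and lines are list medians. The HSP40 and CCT genes lie below 0 on the left and above 0 on the right, the 3 other small heat shock proteins lie the other way, and CRYAB lies farthest from 0.

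Genes whose profile was most like that of CRYAB were not chaperones. Likeness was the root mean square difference over the 12 arrays after each profile was centred on its mean, which favours genes of equal range. It was smallest for ABCC3, an efflux transporter (0.252), TIMP3, an inhibitor of metalloproteinases (0.298), F2RL2, a protease-activated receptor (0.300), and CRABP2, a retinoic acid binding protein (0.312). MAPKAPK3 (0.340), a kinase downstream of p38 that can phosphorylate small heat shock proteins, THBS1, an inhibitor of angiogenesis (0.353), CDH1, the epithelial cadherin (0.355), and CNN1, a smooth muscle calponin (0.374), followed. A flat gene would be near 0.952, the root mean square of CRYAB itself.

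MAPKAPK3 averaged 8.66 ± 0.08 in day 14 pregnant ewes, 10.22 ± 0.51 in day 14 non-pregnant ewes, 8.63 ± 0.16 in day 12 pregnant ewes and 8.48 ± 0.14 in day 12 non-pregnant ewes (SD, n = 3). CRABP2 averaged 4.53 ± 0.35, 6.16 ± 0.28, 4.30 ± 0.46 and 4.31 ± 0.26 in the same groups. Of the members, HSP90AA1 was nearest to CRYAB (0.685, rank 149 of 9027 genes with a name other than a locus number), then HSPH1 (0.719, rank 204) and HSPB8 (0.764, rank 292). BAG3 was at rank 4448 and the neighbour HSPB2 at rank 7911. The 8 genes were picked for their pattern, so no test of them is given.

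**Figure D5:**
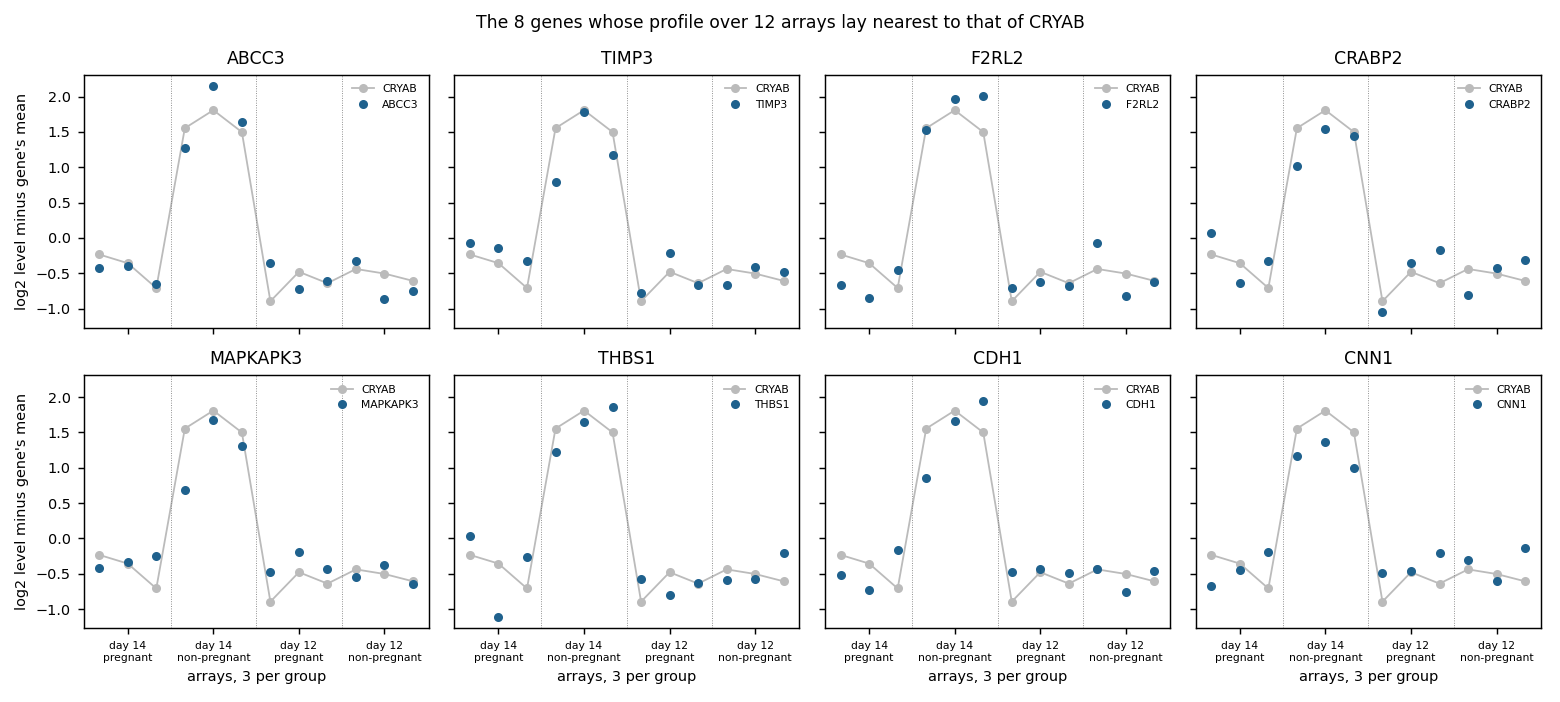
Profiles over the 12 arrays, each centred on its mean, of CRYAB (grey) and of the 8 genes with the smallest root mean square difference from it (blue, 1 per panel). Arrays are grouped from day 14 pregnant to day 12 non-pregnant, and all 9 profiles are high in the day 14 non-pregnant ewes.

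Markers of the gland's cell types were read beside these differences. The 7 luteal steroidogenic markers, all measured and none dim, had a summed linear level of 21458 to 23965 in day 14 pregnant ewes and 12313 to 18656 in day 14 non-pregnant ewes. On day 12 the sum was 21731 to 24067 in pregnant ewes and 21436 to 22901 in non-pregnant ewes. It was thus lowest in the 3 glands with the highest CRYAB, and of these markers 1 of 7, STAR, passed for pregnancy on day 14 (0.74 ± 0.13, adjusted p = 0.0245, limma). In that comparison 5 of the 7 had an unadjusted p under 0.05, beside 18.2% of all genes. Above 0 were 6 and below 0 was 1, with a median of 0.455.

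CRYAB, HSPB6 and HSPB2 are abundant in muscle, so the 10 smooth muscle and pericyte markers were read too. Their sum was 6815 to 9230 in day 14 pregnant ewes and 7326 to 9005 in day 14 non-pregnant ewes, and it overlapped. CNN1, one of the 8 genes picked for their likeness to CRYAB, was at 5.94, 6.16 and 6.43 in day 14 pregnant ewes and 7.78, 7.98 and 7.61 in day 14 non-pregnant ewes (-1.54 ± 0.15, given with no test). Of the other 9 markers 0 passed in limma for pregnancy on day 14, and 2, MYH11 and DES, had an unadjusted p under 0.05. MYH11, the smooth muscle myosin, was on the other side of 0 from CNN1 (0.72, adjusted p = 0.096), as was DES, the muscle intermediate filament desmin (0.51). In day 12 ewes the sum was 6699 to 8142 in pregnant ewes and 8122 to 9486 in non-pregnant ewes.

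For macrophages 4 of 6 markers were measured, and their sum was 648 to 1069 in day 14 pregnant ewes and 658 to 1334 in day 14 non-pregnant ewes. None of the 4 passed in limma, and 3 had an unadjusted p under 0.05 for pregnancy on day 14, with CD68 at -0.63, CD14 at -0.44 and CSF1R at 0.47. Of the 8 endothelial markers CD34 was higher with pregnancy on day 14 (1.09 ± 0.16, adjusted p = 0.00828, limma) and 7 did not pass. An unadjusted p under 0.05 was reached by 3 of the 8, with 5 of the 8 above 0 and 3 below. Of the fibroblast, T cell and red blood cell markers 0 passed in limma for pregnancy on day 14, and 0 had an unadjusted p under 0.05. The 3′ minus 5′ difference of control probe sets, a sign of RNA quality, was 1.44 to 1.60 in day 14 pregnant ewes and 1.29 to 1.43 in day 14 non-pregnant ewes. On day 12 it was 1.57 to 1.60 in pregnant ewes and 1.42 to 1.47 in non-pregnant ewes. The part of cell composition and RNA quality in the heat shock gene differences was not tested.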

How the data were processed

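The deposited values were log2 expression levels of 24128 probe sets, which the submitters' processing notes credit to RMA and Affymetrix Expression Console, with no version given. After 112 control probe sets were left out, 24016 were tested. Symbols came from the platform annotation, which names 1 gene for 13292 probe sets. The sheep gene table served only for names and neighbours.

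Group means with an additive term for array batch entered 1 linear model of the 12 arrays (limma 3.58.1, R 4.3.3), with 7 residual and 4.39 prior degrees of freedom. Tests were two-sided and adjusted by Benjamini-Hochberg over all probe sets, with a threshold of 0.05. Replicates were separate ewes, and their small number limits the precision. The fit was tested on simulated data with the same spread in all groups and no batch effect. That check does not cover batch or a wider spread in the day 14 non-pregnant ewes.

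The 10 members and all lists were chosen with earlier results of these data known. Named are the members, chaperone genes past the threshold, HSPB2, HSP90AB1, HSF1, HSF2 and STUB1, the 8 genes most like CRYAB, and marker genes beside the results. DNAJA1, DNAJA4, DNAJB5, BAG5, HSPA12B, HSPB3, CRYAA, MYH11, DES, CD68, CD14 and CSF1R were added after their values were seen. Alternatives covered batch, samples, array weights, variance model, scaling, dim probe sets, probe sets per gene and each array left out in turn. Promoters and sequences were not analysed here.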

Additional observations from a re-analysis of the deposited data

Results flagged for a closer look

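The pregnancy difference of CRYAB changed with the day. Pregnant minus non-pregnant ewes differed by -2.08 ± 0.15 on day 14 and by -0.12 ± 0.15 on day 12 (log2, 3 ewes per group), so the difference between the days was -1.96 ± 0.22. It is set out here, as a description only, because the pregnancy difference was unlike on the 2 days. No p is given, since the non-pregnant ewes of both days, which singled out CRYAB, enter it. The range that follows holds the same choice. Over the 12 fits that leave out an array it lay between -2.14 and -1.69.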

How the results depend on the processing

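No paired analysis was possible because replicates were only numbered by accession, which pairs no ewes. The 22 alternatives were 12 fits without 1 array and 10 others, of which 1, without the pair of day 14 non-pregnant arrays in batch A, was chosen after seeing the data. The differences of CRYAB and HSP90AA1 for pregnancy on day 14 kept their sign in all 22. The CRYAB difference for pregnancy on day 12, given as a description, lay between -0.23 and 0.036 without 1 array. For pregnancy on day 14, 348 probe sets passed, against 531 without a batch term, 163 in batch B alone, 24 with only the groups compared, 141 with array weights, 228 with the mean of a gene's probe sets and 174 without that pair, and 88 to 510 without 1 array. Of the members 2 passed, against 4 without a batch term, with batch as a random block, with a trend and robust variances, with arrays centred on their medians and without dim probe sets. It was 1 with only the groups compared and with array weights, and 1 to 3 without 1 array. Of the other chaperone genes 0 passed, against 1 (DNAJA1) in batch B alone and without that pair, and 0 to 4 without 1 array.

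For day 14 against day 12 without pregnancy, 94 probe sets passed (70 higher, 24 lower), against 415 without a batch term (231 and 184), 462 with batch as a random block (250 and 212), 142 in batch B alone, 1 with only the groups compared, 44 with the mean of a gene's probe sets, 159 without that pair, and 28 to 254 without 1 array. Of the members 1 passed, against 2 without a batch term and without that pair, 3 with a random block and 0 with only the groups compared. Of the other chaperone genes 0 passed, against 1 in batch B alone and without that pair, and 0 to 3 without 1 array. For pregnancy on day 12, 0 probe sets passed, against 1 with only the groups compared and 0 to 5 without 1 array. For the change of the pregnancy difference with day, 21 passed, against 50 without a batch term and with a random block, 59 in batch B alone and without that pair, 2 with the mean of a gene's probe sets, and 1 to 76 without 1 array, with 0 to 1 members. It has no fit of only the groups compared, since it uses all 4 groups. The causes were not tested, beyond the smaller number of arrays or genes that some of these fits hold.

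There were 3 ewes per group, and the day 14 non-pregnant ewes spread more than the rest on the leading principal component. Where a gene spreads more in that group, as HSPH1 and DNAJB1 do, the model's pooled error can be too small for differences that hold it. For HSP90AA1 and HSPB8 that group had the smallest SD of the 4. RMA values carry no detection calls, and dim probe sets, among them 3 of HSPH1, have compressed differences.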
